A study of Rattus norvegicus with 12 samples.

Results

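The genes described here are 10 genes of the calcineurin, NFAT and class IIa histone deacetylase (HDAC) pathway in rat hearts after myocardial infarction. They are the calcineurin inhibitor Rcan1, the transcription factors Nfatc1, Nfatc2, Nfatc3 and Nfatc4, the calcineurin catalytic subunits Ppp3ca and Ppp3cb, and the class IIa deacetylases Hdac4, Hdac5 and Hdac9. Their rows were found by symbol in the table of read counts. The genes were picked for their place in the pathway, with earlier results of these data known. All 10 were among the 18182 genes tested, of 30560 listed.

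RNA was sequenced from the left ventricles of 12 male Wistar rats that were 7 weeks old at surgery. Sham rats (n = 4) had the chest opened with no suture around the left anterior descending coronary artery, and received vehicle, a carboxymethylcellulose solution. MI rats (n = 4) had that artery permanently ligated and received vehicle, and MI + UA rats (n = 4) had the same ligation and received urolithin A (UA), a compound formed by gut bacteria from dietary ellagitannins. Vehicle or UA, the latter at 50 mg/ml in the series' description, was given by gavage daily for 8 weeks. The paper's results section gives another dose and start of UA than that description. No rat carried a transgene. Each library came from 1 rat, from fixed and paraffin-embedded sections of the middle of the ventricle. Such sections mix scar with surviving muscle, and fewer cells of a type and less RNA per cell cannot be told apart in them. By its label rat 66 belongs to MI + UA, but it stands with the vehicle-treated infarcted rats in a supplementary echocardiography list of the study. It was kept as labelled, and results that rest on it are also given without it. A further MI + UA library mentioned in the labels was not analysed here.

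Calcineurin is a phosphatase that calcium and calmodulin switch on. It removes phosphates from NFATc1 to NFATc4, which then enter the nucleus and bind DNA, often beside GATA4, and in heart muscle this drives hypertrophic growth. Rcan1 is itself switched on by NFAT and feeds back on calcineurin, so its transcript is widely used as a readout of the pathway. Class IIa HDACs hold MEF2 factors silent until calcium-dependent kinases such as CaMKII and protein kinase D send them out of the nucleus. Both arms are controlled mainly by phosphorylation and location in the cell, which transcript counts do not measure.

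To show the DNA around the members' start sites, windows of 300 bases (250 before the gene's start and 50 after it) were taken from RefSeq in the GRCr8 build. They were found for 7 of the 10 genes. Windows for Nfatc1, Nfatc3 and Nfatc4 were not analysed here. Each was searched on both strands for the NFAT core GGAAA, which reads TTTCC on the other strand and which 62.7% of the 33469 RefSeq windows of this length held at least once, and for the MEF2 pattern CTANNNNTAG (the same on both strands), which 3.84% held. No NFAT and MEF2 matches overlapped in the 7 windows. Rcan1 is shown as the NFAT target, Nfatc2 as the member that fell, Hdac5 for its MEF2 match and Hdac9 as the window with the most NFAT cores. Capitals mark the matches. All 4 lie on the minus strand and read 5′ to 3′.
Rcan1, chr11:45118187-45118486: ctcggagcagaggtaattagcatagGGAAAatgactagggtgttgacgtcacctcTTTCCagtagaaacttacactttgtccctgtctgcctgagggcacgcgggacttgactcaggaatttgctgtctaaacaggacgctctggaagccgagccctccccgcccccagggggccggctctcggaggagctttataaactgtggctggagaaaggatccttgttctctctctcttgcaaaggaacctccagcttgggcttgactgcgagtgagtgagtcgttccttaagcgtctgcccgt
Nfatc2, chr3:177732925-177733224: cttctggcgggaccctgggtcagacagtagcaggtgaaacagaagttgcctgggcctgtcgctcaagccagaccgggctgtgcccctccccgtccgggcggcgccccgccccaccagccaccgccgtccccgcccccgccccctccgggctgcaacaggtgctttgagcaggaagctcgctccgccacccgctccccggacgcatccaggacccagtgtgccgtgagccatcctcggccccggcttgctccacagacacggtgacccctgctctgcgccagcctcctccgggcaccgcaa
Hdac5, chr10:87688005-87688304: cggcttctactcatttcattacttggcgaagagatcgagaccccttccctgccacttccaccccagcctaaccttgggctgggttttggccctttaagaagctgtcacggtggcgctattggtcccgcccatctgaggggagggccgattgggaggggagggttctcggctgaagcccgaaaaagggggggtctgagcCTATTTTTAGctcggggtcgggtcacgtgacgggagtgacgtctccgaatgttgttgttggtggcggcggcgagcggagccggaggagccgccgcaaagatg
Hdac9, chr6:57052522-57052821: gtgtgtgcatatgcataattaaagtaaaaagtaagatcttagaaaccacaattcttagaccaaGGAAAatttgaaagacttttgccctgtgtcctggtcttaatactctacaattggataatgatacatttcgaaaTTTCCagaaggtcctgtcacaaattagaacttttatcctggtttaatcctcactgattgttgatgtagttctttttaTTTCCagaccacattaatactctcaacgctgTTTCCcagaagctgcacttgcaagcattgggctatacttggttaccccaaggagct
The Rcan1 window held 2 NFAT cores and the Hdac9 window 4, and 28.5% and 2.9% of all windows held at least that many. The Nfatc2 window held neither pattern, and the Hdac5 window held 1 MEF2 match and no NFAT core. Ppp3cb had 1 NFAT core, and Ppp3ca and Hdac4 had neither pattern. Rcan1 is transcribed from more than one start, so this window need not be the one that responds to NFAT. A match describes letters in a window and is not evidence of binding.

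Levels are given as CPM, the reads on a gene as a share of its library, rescaled to one library size after correction for library composition. They follow transcript length as well as abundance, and gene lengths of the build used were not available here, so levels are not compared between genes. Reads on genes ran from 6228706 to 8958828 in Sham, from 6829591 to 12743184 in MI and from 6819444 to 19031695 in MI + UA. The share of reads assigned to a gene, among those assigned, ambiguous or outside genes, was 50.4% to 53.4% in Sham and 47.6% to 49.8% in MI, without overlap, and 46.2% to 50.8% in MI + UA. All 18 pairs of rats within a group differed by more than counting error.

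After infarction the NFAT genes did not move together. Nfatc2 was lower and Nfatc4 higher in MI than in Sham, while the calcineurin subunits, Rcan1, Nfatc3, Hdac4 and Hdac9 had changes that their spread could not separate from none. Of the 10 genes, 1 was higher and 1 lower at an edgeR adjusted p under 0.05. Over all genes tested the same test called 11.4%, with 5.82% higher and 5.53% lower, so 2 of 10 members is close to the background in a list this short. The members' median log2 fold change was -0.07, against 0.03 over all genes. Groups did not overlap at 2 members, Nfatc1 and Nfatc4, where 20.8% of well-expressed genes (average log2 CPM of at least 1) did not overlap.

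**Figure D1:**
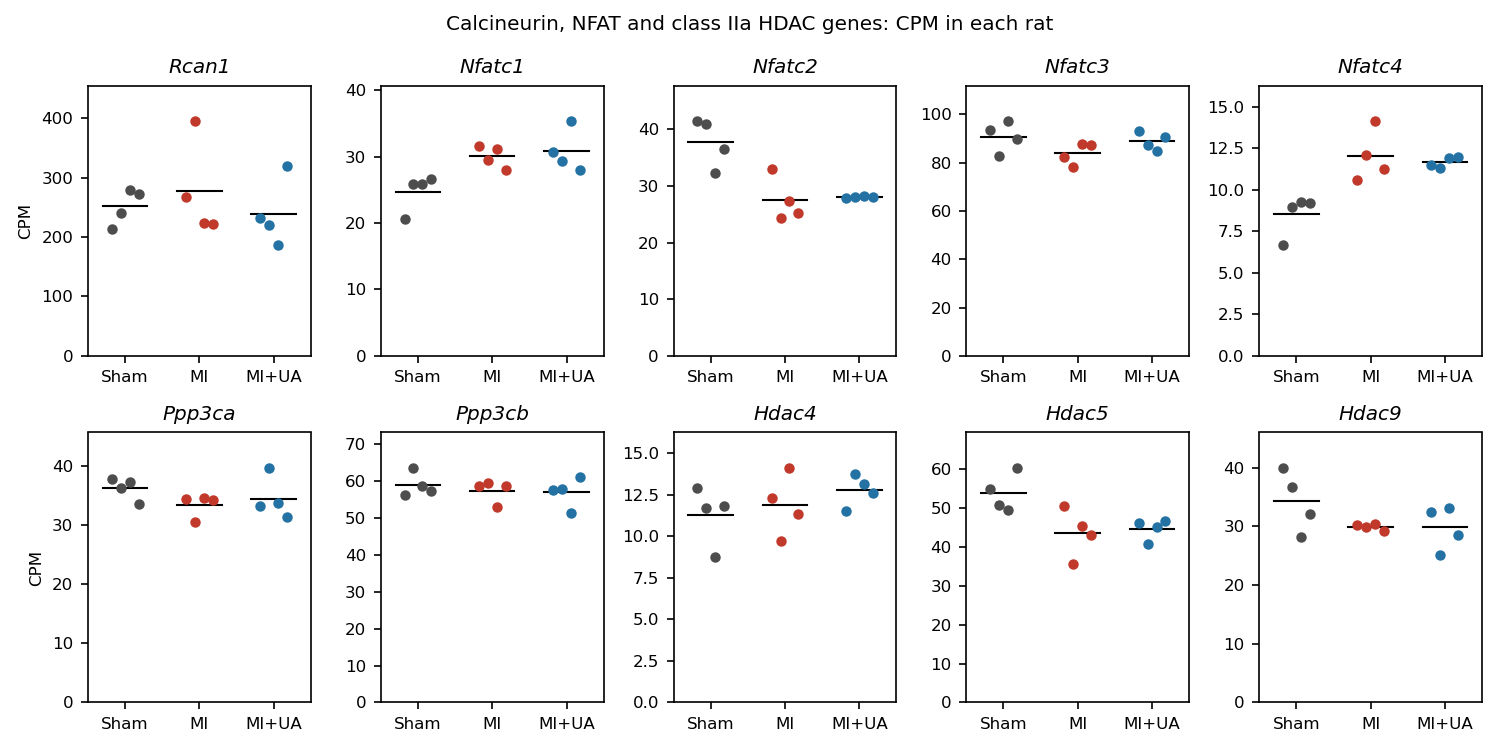
CPM (y axis, from 0, one scale per gene) of the 10 genes in each rat, by group (x axis); points are rats and lines are means of 4. Nfatc2 is lower and Nfatc4 higher in both infarcted groups than in Sham, and Rcan1 is highest in 1 MI rat, at 395 CPM.

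Nfatc2 (ENSRNOG00000012175), best known as the NFAT of activated T cells and also made in heart muscle, was at 41.4, 41.0, 32.3 and 36.5 CPM in Sham rats 12, 17, 32 and 38. In MI rats 36, 57, 61 and 89 it was at 33.0, 24.3, 27.4 and 25.2 CPM. A single MI rat, 36, stood above the lowest Sham rat, and the other 3 lay below all Sham rats. The mean went from 37.8 ± 4.28 CPM (SD, n = 4) to 27.5 ± 3.90 CPM (SD, n = 4), which is -0.46 on the log2 scale (standard error 0.11, 95% confidence interval -0.68 to -0.23, edgeR adjusted p = 0.00695). Nfatc2 passed the threshold in every one of the 7 alternative settings and the 12 fits that left out 1 rat, with a largest adjusted p of 0.0313.

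Nfatc4 (ENSRNOG00000020482), a calcineurin-controlled NFAT that partners with GATA4 in heart muscle, was at 6.65, 8.95, 9.26 and 9.18 CPM in the same 4 Sham rats. The MI rats had 10.6, 12.1, 14.1 and 11.2 CPM, all above Sham. On the log2 scale the difference was 0.50 (standard error 0.14, interval 0.20 to 0.79, edgeR adjusted p = 0.0251), from 8.51 ± 1.247 to 12.01 ± 1.53 CPM (SD, n = 4 each). This call rested on 2 rats. Without Sham rat 12, the lowest, the log2 fold change was 0.39 (adjusted p = 0.0876), and without MI rat 61, the highest, it was 0.41 (adjusted p = 0.100). Nfatc4 was also thinly counted, at 53 to 213 reads per library.

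Nfatc1 (ENSRNOG00000017146), needed for heart valve formation and abundant in endocardium, was at 20.6, 25.8, 25.9 and 26.6 CPM in Sham and at 31.6, 29.5, 31.1 and 28.0 CPM in MI. Every MI rat was above every Sham rat, yet the difference, 0.28 on the log2 scale (standard error 0.10), missed the threshold over all genes (edgeR adjusted p = 0.0913). Nfatc3 (ENSRNOG00000054264), whose loss blunts calcineurin-driven hypertrophy in mice, ranged from 82.7 to 97.1 CPM in Sham and from 78.2 to 87.7 CPM in MI. Its log2 fold change was -0.11, with an interval from -0.28 to 0.05.

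Because Nfatc2 and Nfatc4 were called in opposite directions, the ratios of the NFAT genes within each rat were set out as well. The log2 ratio of Nfatc4 to Nfatc2 was -2.62, -2.18, -1.79 and -1.98 in Sham rats 12, 17, 32 and 38 and -1.63, -1.003, -0.95 and -1.16 in MI rats 36, 57, 61 and 89. No MI rat fell in the Sham range, and the means differed by 0.96. The ratio of Nfatc1 to Nfatc2 also shifted without overlap, by 0.75, and that of Nfatc3 to Nfatc2 by 0.35 with overlap. These ratios were set up with the changes of single genes known, and are given with no test.

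**Figure D2:**
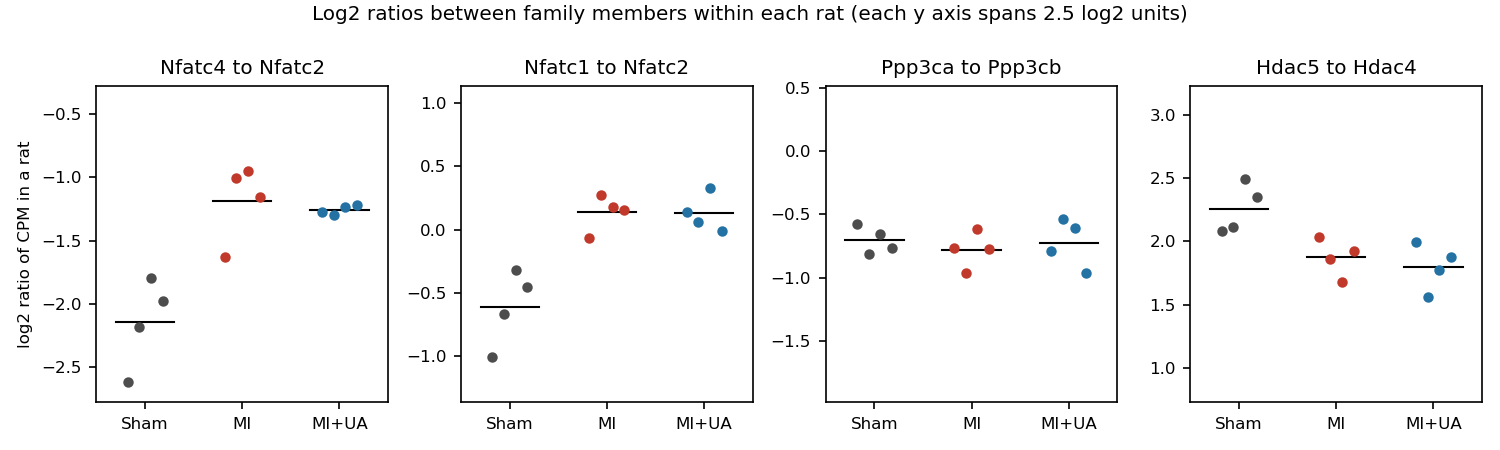
Log2 ratio of CPM (y axis) of 4 gene pairs in each rat, by group (x axis); points are rats, lines are means of 4, and each panel spans 2.5 log2 units around its own centre. The Nfatc4 to Nfatc2 ratio lies between -2.62 and -1.79 in Sham and between -1.63 and -0.95 in MI, while Ppp3ca to Ppp3cb overlaps across the groups.

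The calcineurin catalytic subunits Ppp3ca and Ppp3cb did not pass the test in MI versus Sham. Ppp3ca (ENSRNOG00000009882), the alpha subunit, had 36.2 ± 1.83 CPM in Sham and 33.4 ± 1.98 CPM in MI (SD, n = 4 each). Ppp3cb (ENSRNOG00000054782), the beta subunit linked to the hypertrophic response in mice, had 59.0 ± 3.26 and 57.4 ± 3.04 CPM. The intervals of their log2 fold changes, -0.31 to 0.08 and -0.21 to 0.14, leave room for a modest fall in either. Their ratio to each other shifted by -0.08 on the log2 scale, with overlapping groups.

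Rcan1 (ENSRNOG00000001979) showed no group shift that exceeded its spread. Its count covers the whole gene, so transcripts from its different starts are not told apart. It was at 214, 240, 279 and 273 CPM in Sham rats 12, 17, 32 and 38 and at 268, 395, 224 and 222 CPM in MI rats 36, 57, 61 and 89. Rat 57 alone put the MI mean above the Sham mean, since the other 3 MI rats lay within the Sham range. With rat 57 the difference was 0.14 on the log2 scale (standard error 0.16, edgeR adjusted p = 0.681), and without it -0.08. Rcan1 was the most variable member. Within groups its coefficient of variation was 22.9%, where counting alone gives 2.13%, and its biological coefficient of variation in the edgeR fit, 16.9%, was above the 10.8% of the trend for genes of its level. For each of the other 9 genes that value lay below the trend.

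**Figure D3:**
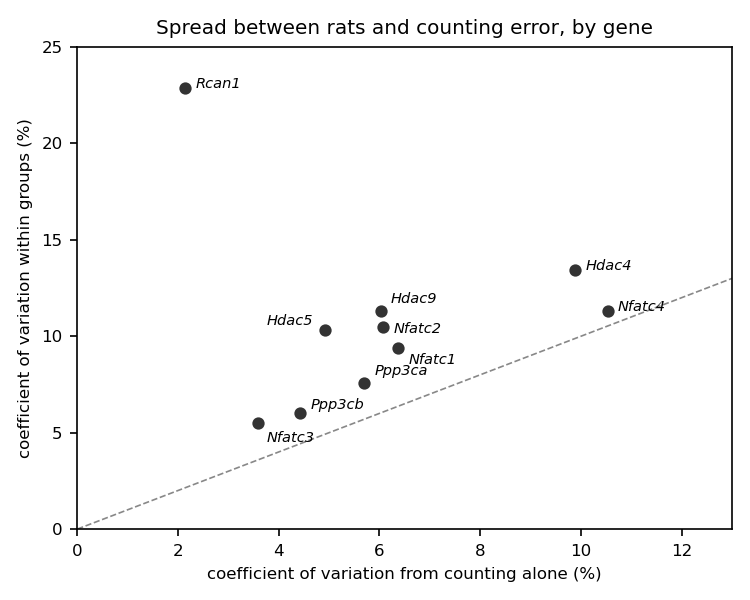
Within-group coefficient of variation over rats (y axis, %) against the coefficient that counting alone gives (x axis, %), 1 point per gene; the dashed line marks equality. Rcan1 stands at 22.9% against 2.13%, and Nfatc4 lies nearest to the line, at 11.3% against 10.5%.

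Among the class IIa HDACs, Hdac5 (ENSRNOG00000020905), whose loss sensitizes mouse hearts to hypertrophic stress, came nearest to a call. Its Sham values were 54.9, 50.9, 49.7 and 60.4 CPM and its MI values 50.6, 35.6, 45.5 and 43.2 CPM, so that rat 36 was the only MI rat inside the Sham range. The difference of -0.30 on the log2 scale (standard error 0.10) missed the threshold in edgeR (adjusted p = 0.0640) and passed it in DESeq2 (adjusted p = 0.0399) and, in edgeR, without rat 36 (adjusted p = 0.0237). Hdac9 (ENSRNOG00000004158) was at 28.3 to 40.0 CPM in Sham and, inside that range, at 29.2 to 30.4 CPM in MI (log2 fold change -0.20, interval -0.43 to 0.03). Hdac4 (ENSRNOG00000020372), counted at 52 to 224 reads per library, had 11.3 ± 1.78 and 11.9 ± 1.84 CPM (SD, n = 4 each), a log2 fold change of 0.07 with an interval from -0.23 to 0.37. The log2 ratio of Hdac5 to Hdac4 was 2.08 to 2.49 in Sham and 1.68 to 2.03 in MI, a shift of -0.38 without overlap. That of Hdac9 to Hdac4 shifted by -0.25 with overlap. Both ratios are given with no test.

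Levels of several cell type markers differed between the groups. Whether the numbers of those cells differed was not tested. Of 11 cardiomyocyte markers 10 were lower in MI (summed level 49568 to 56394 CPM in Sham, 35124 to 41364 CPM in MI). Most of that sum was Ttn, with means of 35322 and 25890 CPM. The mean log2 CPM over the 11 markers was 10.71 in Sham, 10.22 in MI and 10.28 in MI + UA. Of 9 fibroblast markers 7 were higher (1176 to 1491 and 2289 to 3729 CPM), and so were 7 of 8 macrophage markers (121 to 152 and 246 to 397 CPM) and 3 of 5 smooth muscle markers (141 to 167 and 151 to 275 CPM). Of 7 endothelial markers 1, Kdr, was lower (731 to 831 and 659 to 783 CPM). In MI + UA the summed ranges were 36612 to 48107 CPM for cardiomyocytes, 2330 to 3793 CPM for fibroblasts, 206 to 424 CPM for macrophages, 150 to 203 CPM for smooth muscle and 602 to 734 CPM for endothelium. The 9 T and B lymphocyte markers summed to 4.19 to 7.51 CPM in Sham, 4.70 to 7.78 CPM in MI and 3.71 to 8.35 CPM in MI + UA. None was called, and none was at 0 in all 4 rats of a group. They were near the floor, at 0 to 18 reads per library in Sham, 0 to 27 in MI and 0 to 22 in MI + UA. A change in them could therefore be missed. The part of these shifts in the changes of Nfatc2, Nfatc4 and the other members was not tested.

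The question for UA was whether treatment after infarction moved these genes. None of the 10 passed the test between MI + UA and MI. The edgeR test called 0 of 10 (adjusted p = 1.00 for each), DESeq2 called 0, and 0 had an unadjusted p under 0.05. Over all genes 0% passed at the adjusted threshold and 3.79% at an unadjusted p under 0.05, and the MI + UA and MI rats overlapped at all 10 members, where 2.03% of well-expressed genes did not overlap.

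Nfatc2 was at 27.9, 28.0, 28.1 and 28.1 CPM in MI + UA rats 29, 58, 64 and 66. These rats lay closer together (SD 0.0919 CPM) than their counting error of 5.80% would lead to on average. They sat inside the MI range, with a log2 fold change against MI of 0.02 (interval -0.20 to 0.24). Nfatc4 was at 11.5, 11.3, 11.9 and 11.99 CPM in the same rats, also inside the MI range (log2 fold change -0.03, interval -0.31 to 0.24). The log2 ratio of Nfatc4 to Nfatc2 in these rats, -1.28, -1.30, -1.23 and -1.22, likewise stayed within that of MI.

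For Nfatc1 the MI + UA rats had 27.9 to 35.3 CPM and for Nfatc3 84.7 to 93.0 CPM, with log2 fold changes against MI of 0.03 and 0.08. Hdac5 had 46.2, 40.7, 45.1 and 46.6 CPM (log2 fold change 0.03, interval -0.18 to 0.24). Hdac4 and Hdac9 had log2 fold changes of 0.09 and -0.00, and Ppp3ca and Ppp3cb of 0.04 and -0.01. Among all 10, Rcan1 had the largest difference, and it was within the spread. It was at 232, 219, 186 and 319 CPM in rats 29, 58, 64 and 66, a log2 fold change of -0.21 (interval -0.54 to 0.13). The difference depended on single rats, being -0.38 without rat 66 and 0.01 without MI rat 57, and -0.42 with rat 66 counted in MI. None of these passed the adjusted threshold in edgeR, although those without rat 66 in MI + UA had an unadjusted p under 0.05.

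**Figure D4:**
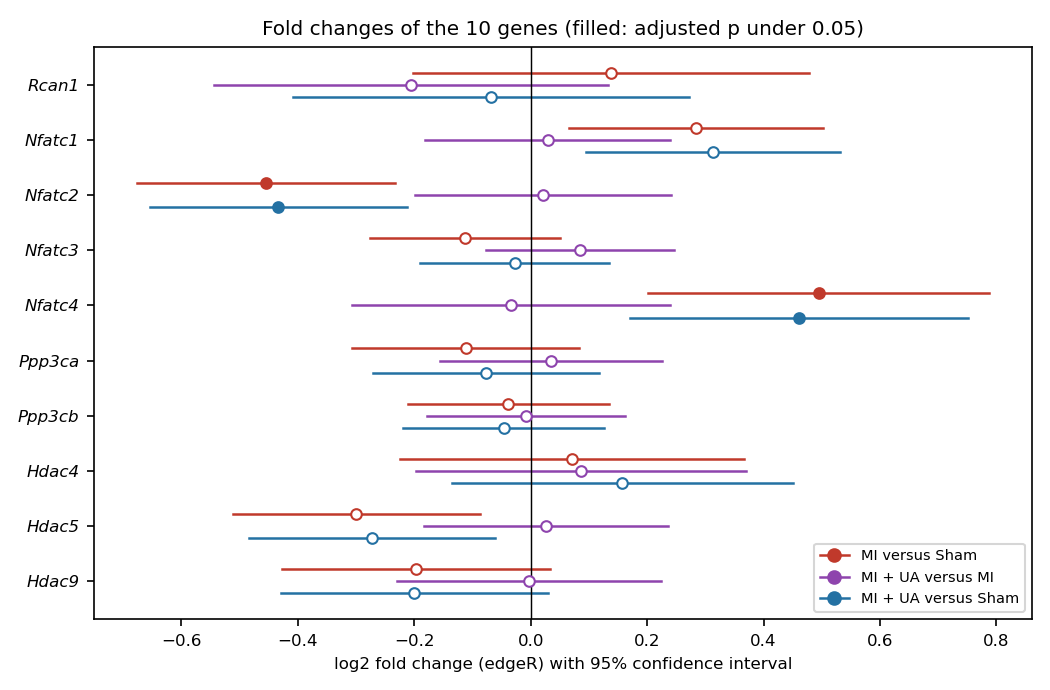
Log2 fold change (x axis) of the 10 genes (y axis) in the 3 comparisons by edgeR; points are estimates, bars are 95% confidence intervals, and filled points have an adjusted p under 0.05. Filled points stand at Nfatc2 and Nfatc4 in the comparisons with Sham, at -0.46 and 0.50 for MI, and every interval of MI + UA versus MI includes 0.

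MI + UA was also compared with Sham. This comparison shares the Sham rats with MI versus Sham and the treated rats with MI + UA versus MI, so it does not repeat them independently. The difference was -0.43 on the log2 scale for Nfatc2 (standard error 0.11, edgeR adjusted p = 0.0115) and 0.46 for Nfatc4 (standard error 0.14, edgeR adjusted p = 0.0413), and these were the 2 of 10 members called. Over all genes 9.44% were called, 5.16% higher and 4.27% lower. Groups did not overlap at 4 members, Nfatc1, Nfatc2, Nfatc4 and Hdac5, against 18.7% of well-expressed genes. Nfatc1 (0.31, adjusted p = 0.0651) and Hdac5 (-0.27, adjusted p = 0.103) missed the edgeR threshold. The call of Nfatc4 was not firm, since it was lost without any 1 of the 4 Sham or the 4 MI + UA rats (adjusted p up to 0.129). Nfatc1 passed without rat 66 (adjusted p = 0.0435), and Nfatc2 passed in all 12 fits that left out a rat (adjusted p up to 0.0433).

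Around the members, 90 genes in 7 lists were examined, of which 5 were higher and 6 lower in MI than in Sham by edgeR, 11 in all, where 11.4% of all genes tested were called. The list total is close to that background. The count was 7 without Sham rat 32 or MI rat 89. Among 13 genes of the calcineurin complex and its regulators, 3 were lower and none higher. They were Rcan2, a second calcineurin inhibitor (log2 fold change -0.34, adjusted p = 0.00310), Myoz2, the Z-disc protein calsarcin-1 that tethers calcineurin (-0.38, adjusted p = 0.00203), and Akap6, which anchors signalling enzymes at the nuclear envelope (-0.31, adjusted p = 0.0346). The cardiomyocyte markers had a median log2 fold change of -0.43 in the same comparison, and their part in these changes was not tested. Rcan2 went from 399 ± 12.05 to 315 ± 16.4 CPM (SD, n = 4 each). The third catalytic subunit, Ppp3cc, had a log2 fold change of -0.26 (adjusted p = 0.0956).

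Of 17 NFAT kinases and partners, 1 was called. It was Nfat5, the NFAT relative that responds to salt stress and is not controlled by calcineurin, and it rose from 343 ± 27.6 to 444 ± 20.4 CPM (SD, n = 4 each, log2 fold change 0.37, edgeR adjusted p = 0.00235). The NFAT kinases, Gsk3b and Dyrk1a among them (log2 fold changes 0.01 and -0.03), were not called, nor was Gata4 (0.04). Of 23 class IIa HDAC kinases, 14-3-3 proteins and export factors, 0 were called by edgeR and 0 by DESeq2, with 5 at an unadjusted p under 0.05, where 23.9% of all genes tested had one. That share of the list is close to the background. The main cardiac CaMKII gene, Camk2d, had a log2 fold change of -0.11, and the protein kinase D gene Prkd1 of 0.30, neither past the threshold.

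Among 10 other HDACs and corepressors, 1 was called. Hdac11 was lower (log2 fold change -0.86, edgeR adjusted p = 0.0157), from 4.69 ± 0.880 to 2.55 ± 0.604 CPM (SD, n = 4 each) on 406 reads in all libraries together. Hdac7, the remaining class IIa deacetylase, had a log2 fold change of 0.09 (adjusted p = 0.610). Of 9 MEF2, SRF and cofactor genes 1 was lower by edgeR, Mef2d, a MEF2 factor held by class IIa HDACs (-0.30, adjusted p = 0.0266). DESeq2 called 2, Mef2d and Nkx2-5, the latter just missing in edgeR (-0.35, adjusted p = 0.0568).

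At the calcium end, 2 of 11 genes changed in opposite directions. Cacna1g, a T-type channel subunit, rose from 12.1 ± 3.15 to 25.9 ± 3.88 CPM (SD, n = 4 each, log2 fold change 1.09, edgeR adjusted p = 0.000461), and Cacna1c, the pore of the L-type channel, fell by 0.31 on the log2 scale (adjusted p = 0.0218). Of 7 hypertrophy markers 3 were higher by edgeR, Nppa, Myh7 and Xirp2. DESeq2 called 2, Nppa and Xirp2. The call of Myh7 (edgeR adjusted p = 0.0350) thus depended on the method, and its groups overlapped. Nppa, which encodes atrial natriuretic peptide, had 49.4 ± 25.2 CPM in Sham and 331 ± 122 CPM in MI (SD, n = 4 each), while Nppb had 195 ± 63.7 and 233 ± 89.3 CPM and was not called.

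**Figure D5:**
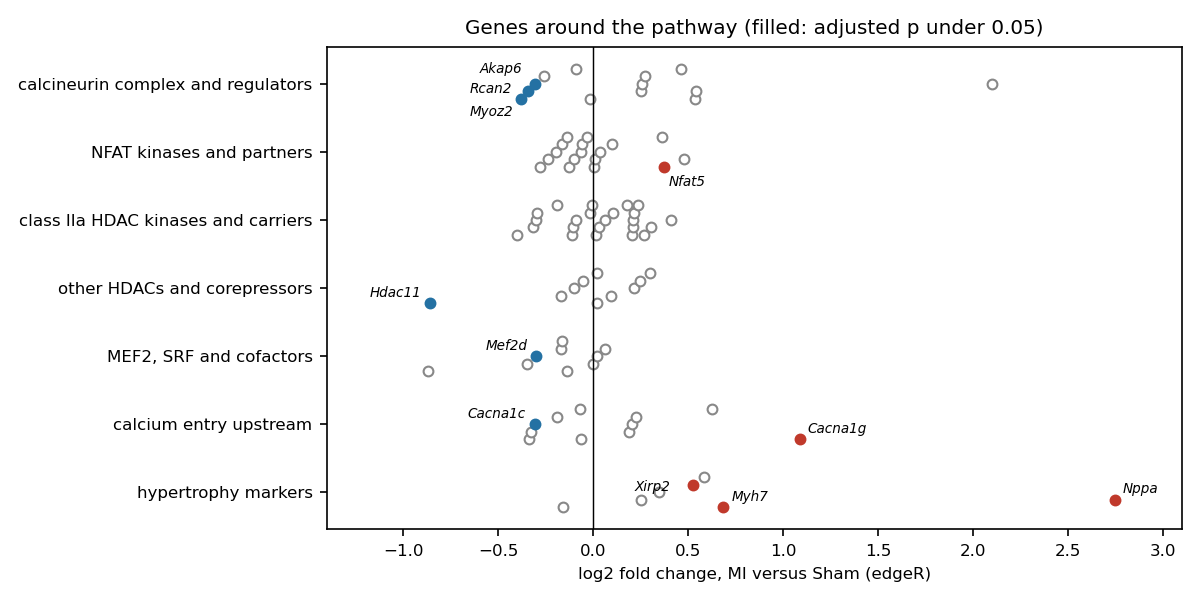
Log2 fold change in MI versus Sham (x axis) of 90 genes in 7 lists (y axis; height within a list has no meaning); filled points have an edgeR adjusted p under 0.05 and are named, red higher and blue lower. Named points are 5 higher and 6 lower, with none among the 23 class IIa HDAC kinases and carriers.

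Between MI + UA and MI, 0 of the 90 genes were called by edgeR and 0 by DESeq2, and 3 had an unadjusted p under 0.05, Fos, Cacna1g and Myh7, with overlapping groups, where 3.79% of all genes had one. Against Sham, 12 were called in MI + UA, 5 higher and 7 lower, where 9.44% of all genes tested were called. They included Rcan2 (log2 fold change -0.28), Myoz2 (-0.40), Akap6 (-0.31), Nfat5 (0.38), Mef2d (-0.28), Cacna1c (-0.34), Cacna1g (0.72), Nppa (2.37) and Xirp2 (0.56). By edgeR, Fos, an NFAT partner (0.95), Camk2a (-0.54) and Nkx2-5 (-0.41) were called in this comparison and not in MI versus Sham. Nkx2-5 narrowly missed there (-0.35, edgeR adjusted p = 0.0568), and DESeq2 called it in both comparisons. Myh7 (0.24, adjusted p = 0.552) and Hdac11 (-0.61, adjusted p = 0.0875) were called by edgeR in MI versus Sham and not here. DESeq2 also called Hdac11 in MI versus Sham only, but Myh7 in neither comparison. These contrasts between comparisons were not themselves tested.

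To describe which genes tracked each member from rat to rat, log2 CPM less the group mean was correlated over the 12 rats with 7348 well-expressed genes, and the 3 highest were kept. Since they are the highest of so many, and share libraries and depth, the values are descriptions of likeness within groups. Rcan1 was followed most closely by Enah, an actin regulator (r = 0.967), by Dyrk1a, a kinase that sends NFAT out of the nucleus (0.966), and by Rcan2 (0.965). Leaving out rats 57 and 66, the farthest from the median of Rcan1, gave 0.918, 0.902 and 0.904. Thus rats high in Rcan1 for their group were also high in another inhibitor and in an NFAT kinase.

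For Nfatc2 the closest genes were Zbtb10 (r = 0.886), Dusp5, a phosphatase of the kinase ERK (0.875), and Herc6 (0.868), and for Nfatc4 they were Psmb7, a proteasome subunit (0.934), Cox6c, of respiratory complex IV (0.934), and Fxr2 (0.924). Without rats 12 and 61 the last 3 were at 0.831, 0.855 and 0.801. Without subtracting the group means, r with Nfatc4 over the 12 rats was -0.27 for Psmb7, -0.44 for Cox6c and 0.04 for Fxr2, so the likeness was within groups and did not extend to the levels across groups. For the closest genes of all 10 members this r ran from -0.44 to 0.965 (Hdac5 with Tbrg4). Nfatc1 went with Akt1 (0.936), Keap1 (0.928) and Man1c1 (0.919), and Nfatc3 with Fam234b (0.942), Sec31b (0.888) and Focad (0.885).

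Hdac5 was closest to Tbrg4 (r = 0.932), Atxn7l3 (0.904) and Esyt1 (0.876), Hdac9 to Nfya (0.892), Osbpl5 (0.874) and Acsl5 (0.873), and Hdac4 to Fastkd3 (0.904), Tet1 (0.895) and Cdk19 (0.895). Ppp3ca followed Manea (0.926) and Zeb2 (0.898), and Ppp3cb followed Mmut (0.944), Klhdc2 (0.915) and Tpp2 (0.909). No member was among the 3 closest genes of another. Leaving out the 2 rats farthest from a member's median lowered most of these values, to 0.732 for Nfatc2 with Herc6, 0.677 for Hdac5 with Esyt1, 0.697 for Hdac4 with Fastkd3 and 0.710 for Hdac9 with Nfya. Over the 45 pairs of members r ran from -0.63 to 0.67 with a median of -0.13, the lowest being that of Rcan1 with Ppp3ca.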

How the data were processed

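Whole-section RNA of 12 rats was sequenced in pairs after rRNA depletion (the labels also name polyA RNA), 1 library per rat. The authors mapped the reads with STAR 2.6.1c to mRatBN7.2 (Ensembl 108) and deposited the raw HTSeq counts per gene, without normalization. All 12 sample columns were used. The 5 HTSeq summary lines, 51.7% to 57.1% of the column totals, were left out. Genes reaching 10 counts over all libraries were fitted with the 3 groups in one model (edgeR 4.0.16, R 4.3.3, TMM, quasi-likelihood F test, Benjamini-Hochberg over 18182 genes), and 0.05 was the threshold for a call. Standard errors and 95% intervals came from the F statistic. DESeq2 1.42.0, other filters and scalings, rat 66 counted in MI and leaving out each rat were the alternatives. The members and lists were chosen with earlier results of these data known. Named were all 10 members, up to 4 called genes per list by size of change, and 3 genes most like each member. Symbols Ppp3r1, Calm3, Dyrk2, Tbl1x, Trpc5, Trpc6, Fhl1 and Pln were not analysed here. A few other genes are not reported here. The labels name no batch.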

Additional observations from a re-analysis of the deposited data

Results flagged for a closer look

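Dixon's ratio, the gap from the lowest or highest rat to its neighbour over the range of the group, exceeded its 95% critical value (that for groups of 4 rats) in 4 of 48 groups of log2 CPM and ratio values examined, where chance gives 2.4. Sham rat 12 was the lowest for Nfatc1 (ratio 0.888) and for Nfatc4 (0.897), and it is also the Sham rat without which Nfatc4 lost its call in MI versus Sham. MI rat 57 was the lowest for Ppp3ca (0.922), and MI rat 61 for Ppp3cb (0.856). Rat 57 was also the MI rat with the highest Rcan1, at 395 CPM.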

How the results depend on the processing

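Of 190 alternative values of the members' log2 fold changes in each of the 3 comparisons, 529 in all kept direction and side of the threshold, 12 lost a call, 4 gained one and 25 changed sign. Of the sign changes 19 were in MI + UA versus MI, and the largest value of a changed sign was 0.079 in size. With rat 66 counted in MI, Hdac5 and Hdac9 in MI + UA versus MI came to -0.014 and 0.035, and in MI + UA versus Sham the 2 members called were Nfatc1 and Nfatc2. With only the 2 groups compared in the fit, 1 member was called in MI + UA versus Sham, Nfatc4 being lost (adjusted p = 0.0523). Leaving out 1 rat at a time gave 1 to 3 members called in MI versus Sham, 1 to 2 in MI + UA versus Sham, 7 to 12 of the listed pathway genes in MI versus Sham, and 8 to 13 in MI + UA versus Sham. Under the same fits, log2 fold changes that changed sign ranged as follows. In MI versus Sham they ran from -0.079 to 0.23 for Rcan1, -0.060 to 1.6e-05 for Ppp3cb and -0.025 to 0.14 for Hdac4. In MI + UA versus MI they ran from -0.38 to 0.012 for Rcan1, -0.037 to 0.076 for Nfatc1, -0.027 to 0.13 for Nfatc2, -0.095 to 0.054 for Nfatc4, -0.036 to 0.081 for Ppp3ca, -0.045 to 0.036 for Ppp3cb, -0.053 to 0.11 for Hdac5 and -0.053 to 0.064 for Hdac9. In MI + UA versus Sham they ran from -0.24 to 0.033 for Rcan1 and -0.070 to 0.0053 for Nfatc3. The causes were not tested. No paired analysis was possible because each rat belongs to 1 group and the groups share no numbers. Depth limits Nfatc4 and Hdac4 the most, at 10.5% and 9.88% counting error per library on average.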
